A study of Homo sapiens with 9 samples.

Results

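HT-29 is an established line of epithelial cells from a human colon adenocarcinoma. In the comparison described here, 3 arrays of HT-29 cells given rosemary extract for 24 h were set against 3 arrays of HT-29 cells labelled untreated, which received the vehicle for the same 24 h. These are 6 of the 9 arrays of the series. The other 3 arrays hold cells given carnosic acid, a phenolic diterpene of rosemary, for 24 h. They enter the choice of row per gene, the level filter, the estimate of the spread and a direct comparison with the extract. All cultures had the same background: McCoy's 5A medium with fetal calf serum, adhesion overnight before treatment, and trypsin before the RNA was taken. Neither the doses nor what the extract holds are stated in these sources. Arrays of 1 group are biological replicates per the series' design text, with no separate culture days named, so the p-values measure the spread between these samples, which may be technical. Every value below is a deposited expression value on a log2 scale, in which a difference of 1 is a 2-fold change.

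The comparison was read gene by gene. Of 53617 rows on the Affymetrix GeneChip 2.0 ST array, 16098 carried 1 gene symbol, and 1 of them, the brightest over the 9 arrays, stood for each of 14884 genes. The dimmest 25% of these, 3721 genes with a mean level under 4.50, were left out, which left 11163 genes tested. A gene is said to rise or fall where its adjusted p in limma's moderated test was under 0.05 (Benjamini-Hochberg over the 11163 genes, two-sided). Errors of single groups are SD with n = 3, and errors of differences are limma's standard errors (SE). Some families had no named row, so that 3 of 70 gene lists, among them the 22 amino acid transporters, had no tested member, and 1 of 45 proteasome genes was tested. Arrays of a group correlated at 0.9946 to 0.9962, and untreated with extract arrays at 0.9712 to 0.9779. On the first principal component of the 6 arrays, which held 82.7% of the variance, the untreated arrays lay between -26.33 and -24.84. Extract replicates 1 and 2 lay at 27.77 and 27.79, and extract replicate 3 at 20.78, nearer to the untreated arrays.

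The arrays carried markers of colon epithelium. The mean level of 13 epithelial markers was 8.64 to 8.76 in the untreated arrays and 8.75 to 8.84 in the extract arrays. The keratin KRT18 was at 12.6 and the adhesion molecule EPCAM at 11.4 in untreated cells. The dimmest were CDX2 (5.77), CLDN4 (6.1), CDX1 (6.2) and TFF3 (6.39), no brighter than some markers of other cells. Markers of fibroblasts and hepatocytes were on average near the low end of the scale. In untreated cells 3 fibroblast markers averaged 4.14 to 4.33 and 6 hepatocyte markers 4.62 to 4.75, with 4.09 to 4.24 and 4.47 to 4.75 in the extract arrays. The brightest of them in untreated cells were the fibroblast gene THY1 (6.13) and the hepatocyte gene TTR (6.03). The fibroblast genes DCN and LUM lay at 2.96 and 3.64, and the hepatocyte gene ALB at 3.72. These arrays have no true zero, so such a value cannot be told from background. Leukocyte markers averaged 7.06 to 7.11 in untreated and 7.19 to 7.32 in extract arrays. They include lysozyme (LYZ), at 12.4 in untreated cells, and CD68, a protein of lysosomes and endosomes that is described with the lysosomal genes below. Endothelial markers averaged 5.66 to 5.67 and 5.61 to 5.74, and those of melanocytes and neurons 4.89 to 4.93 and 4.78 to 4.88. The endothelial marker ESAM was at 8.38 in untreated cells.

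Several well-known response pathways frame the results. Metallothioneins are small proteins that bind zinc and copper, and their genes respond to metals through the factor MTF1. Electrophiles such as oxidised plant phenols can release the factor NRF2, which turns on antioxidant genes. Stress at the endoplasmic reticulum (ER) or a lack of amino acids raises the factor ATF4, whose targets include genes that make amino acids and charge tRNA. Genes of DNA replication are driven by E2F factors in late G1 and S phase, and genes of mitosis by the MuvB complexes later in the cycle. In the colon, renewal depends on Wnt-driven division in the crypt, and cells that leave the cycle go on to form the absorptive surface.

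The promoters of some genes in the results hold letters known for these pathways. Shown are the 200 bases before the RefSeq start site of 6 genes, read 5′ to 3′ on the strand of the gene (RefSeq, GRCh38.p14). These 6 are picked examples that each hold a match, and other leading genes do not. Capitals mark a match to the metal response element (TGCACNC or TGCGCNC) in MT1X at chr16:56682270-56682469 on the plus strand, to the C/EBP-ATF response element (TGATGNAA) in ASNS at chr7:97872409-97872608 and AARS1 at chr16:70289507-70289706, both on the minus strand, to an E2F site (TTTNNCGC) in GINS2 at chr16:85688955-85689154 on the minus strand, and to the cell cycle homology region (TTTGAA) in CCNB2 at chr15:59104946-59105145 and KIF11 at chr10:92592930-92593129, both on the plus strand.
MT1X: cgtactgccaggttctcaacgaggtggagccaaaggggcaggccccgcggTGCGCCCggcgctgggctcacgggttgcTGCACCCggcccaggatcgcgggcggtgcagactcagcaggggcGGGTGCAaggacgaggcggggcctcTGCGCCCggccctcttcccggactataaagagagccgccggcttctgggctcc
ASNS: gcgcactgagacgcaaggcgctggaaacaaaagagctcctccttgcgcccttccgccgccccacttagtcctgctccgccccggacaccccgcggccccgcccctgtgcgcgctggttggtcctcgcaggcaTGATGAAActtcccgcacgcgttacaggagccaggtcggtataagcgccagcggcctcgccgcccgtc
AARS1: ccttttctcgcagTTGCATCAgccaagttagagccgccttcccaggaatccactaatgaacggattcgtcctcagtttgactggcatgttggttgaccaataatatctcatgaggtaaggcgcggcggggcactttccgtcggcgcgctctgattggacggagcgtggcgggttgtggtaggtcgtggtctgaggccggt
GINS2: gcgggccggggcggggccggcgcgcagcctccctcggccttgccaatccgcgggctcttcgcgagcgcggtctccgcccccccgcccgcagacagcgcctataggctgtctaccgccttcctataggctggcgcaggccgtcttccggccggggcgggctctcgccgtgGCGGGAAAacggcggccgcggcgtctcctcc
CCNB2: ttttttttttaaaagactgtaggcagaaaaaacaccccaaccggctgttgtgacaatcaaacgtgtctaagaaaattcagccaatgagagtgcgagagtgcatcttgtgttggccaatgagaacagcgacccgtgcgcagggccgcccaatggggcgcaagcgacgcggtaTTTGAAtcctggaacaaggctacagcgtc
KIF11: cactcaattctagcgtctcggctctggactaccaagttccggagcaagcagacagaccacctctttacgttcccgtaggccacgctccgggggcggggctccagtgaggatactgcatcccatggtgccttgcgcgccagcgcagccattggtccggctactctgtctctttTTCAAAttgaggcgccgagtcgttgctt
MT1X holds 4 matches, which begin 150, 122, 78 and 53 bases before the start site. The single matches of ASNS, AARS1, GINS2, CCNB2 and KIF11 begin 68, 187, 31, 29 and 28 bases before it. Motifs were sought on both strands in RefSeq promoters of 300 bases (250 before and 50 after the start) of 8486 tested genes, with overlapping matches of 1 motif counted once. In these promoters the synthetase genes WARS1, SARS1 and GARS1 held no C/EBP-ATF response element, and the kinesin gene KIF20A held no cell cycle homology region. A match is a description of the letters, and no binding was measured.

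The extract changed a large part of what was measured. Of 11163 genes 4256 were called (38.1%), 2439 higher (21.8%) and 1817 lower (16.3%). The counts of the gene lists below stand beside these shares. Most of these changes were small: 2709 of the calls (63.7%) were under 1.5-fold, and the median size of a called change was 0.469. At least 2-fold were 291 rises (2.61%) and 279 falls (2.5%), and all of these 570 genes also passed a test against a change of 1.2-fold. The values of the 3 extract arrays lay wholly apart from those of the 3 untreated arrays in 5218 genes (46.7%), higher in 2792 (25%) and lower in 2426 (21.7%). The median change over all genes was -0.018. In RNA from whole cultures, fewer cells in a state and less RNA per cell cannot be told apart.

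**Figure D1:**
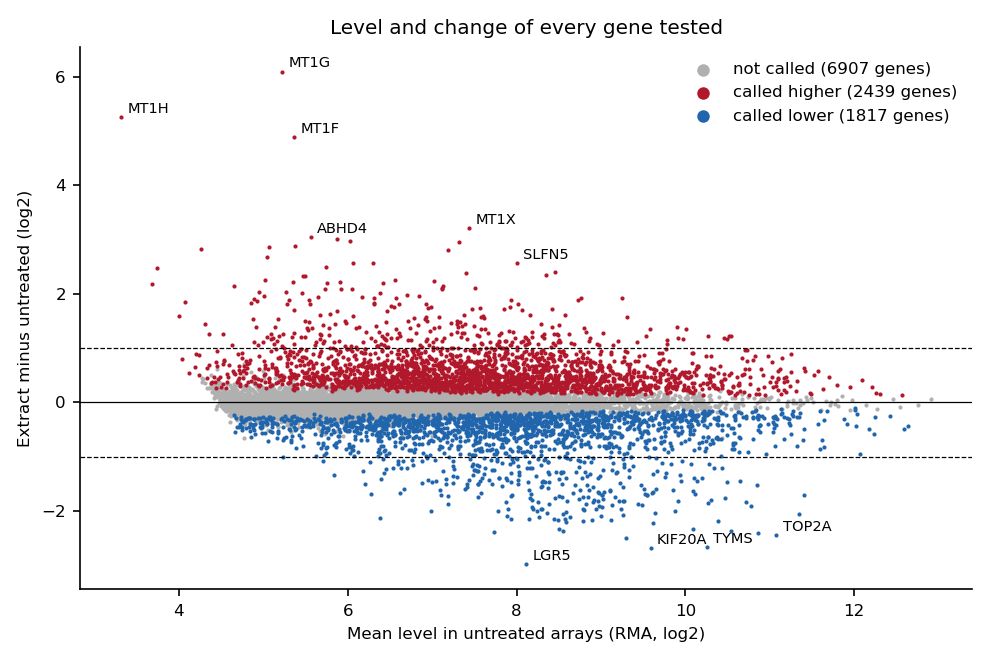
Each point is 1 of 11163 genes, with its mean level in the 3 untreated arrays (RMA, log2) on the x axis and the extract minus untreated difference (log2) on the y axis (red called higher, blue lower, grey not called, dashed lines at 2-fold). Falls of at least 2-fold number 1 in the dimmest of 4 equal groups of genes and 186 in the brightest.

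Genes were called more often in both directions at higher untreated levels, and falls of at least 2-fold came mostly from bright genes. When the tested genes were cut into 4 equal groups by their untreated level, the share called lower went from 4.34% in the dimmest group through 9.82% and 18.1% to 32.8% in the brightest. The share called higher went from 8.71% through 16.3% and 30.8% to 31.5%. Falls of at least 2-fold numbered 1, 18, 74 and 186 from dim to bright, and rises of at least 2-fold 60, 73, 93 and 65. The untreated level is part of the difference, and a level near background leaves little room to fall, so these shares are a description. The lists below are set beside all genes tested and not beside genes of the same level. Among the tested genes, 71 had an untreated mean under 4.50 and 27 of them were called higher. For these no fold or difference is given. The filter used the mean over the 9 arrays, so some of them passed it only through their extract level, and they stay in the list counts.

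**Figure D2:**
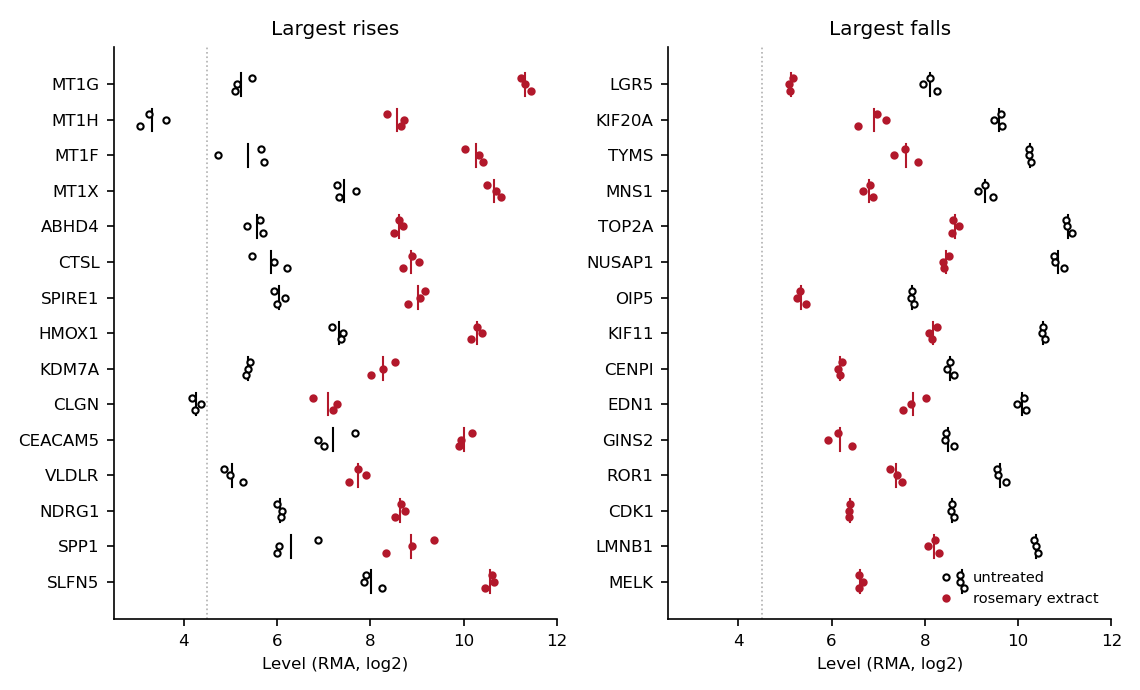
Each point is 1 array: open black circles are untreated and filled red circles extract, with short bars for the means of 3 arrays, and the x axis is the level (RMA, log2). The 15 largest rises are on the left and the 15 largest falls on the right, with a dotted line at the level of 4.50, and the untreated and extract points of every gene shown lie apart, as their choice required.

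Metallothioneins led the rises. MT1G measured 5.46, 5.14 and 5.09 in the untreated arrays and 11.21, 11.32 and 11.44 in the extract arrays. All extract values lay far above all untreated ones, a difference of 6.10 ± 0.11 (SE), or 68.5-fold (limma adjusted p = 4.22e-11). MT1F went from 5.65, 4.73 and 5.72 to 10.02, 10.33 and 10.42, and MT1X, whose promoter is shown above, from 7.29, 7.69 and 7.33 to 10.49, 10.69 and 10.80. Neither gene's groups overlapped, with differences of 4.89 ± 0.25 and 3.22 ± 0.12. MT1H measured 3.25, 3.62 and 3.07 in untreated cells, all under 4.50, and 8.35, 8.72 and 8.66 with the extract. MT2A, the most widely expressed form, rose from 8.02 ± 0.18 to 9.82 ± 0.13 (SD), or 3.5-fold. Of 11 metallothioneins 8 were tested, and 6 rose and 0 fell, where 21.8% and 16.3% of all genes did, with a median change of 2.515 against -0.018 over all genes. MT1H passed the level filter only through the extract arrays, since it measured 3.42, 3.23 and 2.99 with carnosic acid. It is counted here, so the filter favours rises in this list, while other members were left out as dim. MT1E lay at the threshold (0.39, adjusted p = 0.0492), and its call was lost without any untreated array (0.0728 to 0.123), extract replicate 1 (0.192) or 3 (0.129) or carnosic acid replicate 3 (0.0588). Of the 2 that did not pass, the brain form MT3 differed by -0.23. Metallothionein genes are close to identical in sequence, so the probes of 1 member can also pick up another. MTF1, the metal-responsive factor, rose by 0.74 ± 0.08. Of the 6 genes that rose, 3 had a RefSeq promoter here (MT1H, MT1X and MT2A), and all 3 held a metal response element, as did 37.6% of all promoters.

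Genes of haem and iron handling moved in both directions. HMOX1, the inducible haem oxygenase, went from 7.32 ± 0.12 to 10.28 ± 0.12 (SD). The 3 extract values lay above the untreated ones by 2.96 ± 0.09 (7.79-fold, adjusted p = 4.08e-09). BLVRB, a biliverdin reductase, rose by 1.28, and FECH, which inserts iron into haem, by 1.01. NCOA4, the receptor that takes ferritin to the lysosome, rose by 0.46, and UROD, an enzyme of haem synthesis, by 0.22, a call lost without untreated replicate 2 (adjusted p = 0.0984) or extract replicate 2 (0.124). The constitutive oxygenase HMOX2 fell by 0.33 ± 0.08. In all, 5 of 11 tested genes rose and 1 fell, where 21.8% and 16.3% of all genes did. BLVRA (-0.26), the other biliverdin reductase listed, was among those that did not pass.

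Most tested antioxidant genes driven by NRF2 rose. Of 13 tested NRF2 genes 12 rose and 0 fell (median change 0.711), of 27 in the list. SRXN1, sulfiredoxin, which repairs oxidised peroxiredoxins, went from 8.34, 8.49 and 8.52 to 10.84, 10.97 and 10.78. Its groups lay apart by 2.41 ± 0.08, or 5.32-fold (adjusted p = 8.38e-09). Further oxidoreductases rose: PGD of the pentose phosphate pathway by 1.17, UGDH, which makes UDP-glucuronate, by 1.16, glutathione reductase GSR by 1.16 and thioredoxin reductase TXNRD1 by 1.05. NFE2L2, which encodes NRF2 itself, was the 1 member that did not pass (8.90, 8.88 and 8.99 against 8.94, 8.93 and 8.83, adjusted p = 0.812). An antioxidant response element (TGACNNNGC) stood in 2 of 10 promoters of the genes that rose, against 15% of all promoters.

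The wider set of glutathione enzymes and peroxidases held 6 rises and 6 falls among 25 genes (median 0.077), where 21.8% of all genes rose and 16.3% fell. GPX3, a secreted glutathione peroxidase, went from 5.27, 5.92 and 6.17 to 7.43, 7.39 and 7.46, and GLRX, glutaredoxin, from 4.45, 5.25 and 5.03 to 6.55, 6.26 and 6.09. Both rose without overlap, by 1.64 ± 0.18 and 1.39 ± 0.18. The peroxiredoxin PRDX2 fell from 9.50, 9.62 and 9.45 to 8.83, 8.77 and 8.86, a change of -0.71 ± 0.07. PRDX3, the mitochondrial peroxiredoxin, fell by 0.59, and the main cytosolic peroxidase GPX1 by a change of -0.44. Among 7 drug-metabolising genes 4 rose. The carbonyl reductase CBR3 went from 5.71, 5.27 and 5.43 to 7.71, 7.95 and 7.74 (5.01-fold), and the monoamine oxidase MAOB rose by 2.10 where its relative MAOA fell by 0.34. ALDH2 rose by 0.83 and CBR1 by 0.80.

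Genes of the ATF4 pathway rose, while the mRNA of ATF4 itself changed by 0.21, from 9.64, 9.59 and 9.50 to 9.81, 9.78 and 9.77. Without untreated replicate 3 this call no longer held (adjusted p = 0.0594), nor without extract replicate 1 (0.0607) and after cyclic loess normalization (0.139). Of 16 genes of the ATF4 pathway 9 rose and 0 fell (median 0.389). SESN2, a leucine-sensing brake on growth signalling, went from 6.45, 6.53 and 6.17 to 8.66, 8.43 and 8.13, and DDIT4, another such brake, from 6.27, 6.29 and 6.37 to 8.19, 8.18 and 8.07. Extract values were the higher ones in both, by 2.02 ± 0.13 and 1.83 ± 0.08. TRIB3, a pseudokinase that restrains the pathway, measured 8.97, 8.88 and 8.34 with the extract, of which the lowest value, in replicate 3, was still above all untreated values (6.93, 7.01 and 6.83). The lipoprotein receptor VLDLR rose by 2.68 and KLHL24 by 1.30. ATF5 (-0.04) was among those that did not pass.

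Sensors of the unfolded protein response rose in most cases. ERN1, which encodes the sensor IRE1, went from 5.74, 5.27 and 5.65 to 7.67, 7.37 and 7.05, with extract replicate 3 the lowest of its group. The rise was 1.81 ± 0.15 (3.51-fold). CREB3L2, a membrane-bound factor cleaved in the Golgi, rose by 1.19, its relative CREB3 by 0.89, the sensor ATF6 by 0.75 and the PERK gene EIF2AK3 by 0.57. In all 7 of 10 rose and 0 fell (median 0.531), while ERN2, the form of IRE1 in mucosal epithelium (-0.29), CREB3L1 (-0.13) and CREB3L3 (-0.06) did not pass. ERN2 was called lower without extract replicate 1 (adjusted p = 0.0272) and without carnosic acid replicate 3 (0.0346).

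Synthetases that load amino acids onto tRNA rose in most cases, and 3 fell. Of 20 cytosolic synthetases 17 were tested, and 13 rose (median 0.509). WARS1, for tryptophan, went from 7.69, 7.54 and 7.62 to 9.19, 9.24 and 9.07, although a second, dimmer row of this gene gave a change of 0.49. SARS1, for serine, went from 8.46, 8.46 and 8.54 to 9.80, 9.77 and 9.64, GARS1, for glycine, from 10.30, 10.21 and 10.31 to 11.48, 11.56 and 11.45, and AARS1, for alanine, from 9.79, 9.70 and 9.83 to 10.76, 10.74 and 10.74. In each the groups were apart, with differences of 1.55, 1.25, 1.22 and 0.98. CARS1, for cysteine, rose by 0.87. KARS1, for lysine, went the other way, from 10.79, 10.82 and 10.80 to 10.43, 10.55 and 10.55, and VARS1, for valine, fell by 0.28. QARS1, for glutamine, fell by 0.20 with overlapping groups, a call lost without untreated replicate 1 (adjusted p = 0.0919) or 3 (0.0758) and without extract replicate 1 (0.0759) or 2 (0.124). A C/EBP-ATF response element stood in the promoter of 6 of 11 synthetases that rose and had a promoter here (AARS1, CARS1, IARS1, MARS1, NARS1 and TARS1), or 54.5%, against 1.71% of all promoters. The call of IARS1 (0.13) was lost without untreated replicate 1 or 2 (adjusted p = 0.0522 and 0.0553) and without any extract array (0.0506 to 0.0879). Among the 9 promoters of the ATF4 pathway genes that rose, 0 held it.

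Enzymes that make amino acids followed in part. ASNS, asparagine synthetase, went from 7.04, 7.15 and 7.15 to 9.27, 9.27 and 9.16. Its 3 extract values lay close together and far above the untreated ones, a rise of 2.12 ± 0.08 (4.33-fold, adjusted p = 8.7e-09). CTH, which makes cysteine, rose by 1.70, and the serine enzyme PSAT1 from 10.52 ± 0.01 to 11.75 ± 0.04 (SD). PHGDH, the first enzyme of serine synthesis, rose by 0.54. SHMT1, the cytosolic enzyme that splits serine for folate-bound carbon, fell from 7.37, 7.50 and 7.58 to 6.17, 6.15 and 6.10, while the mitochondrial form SHMT2 rose by 0.39. Glutamine synthetase GLUL fell by 0.45. In all 6 of 12 tested genes rose and 2 fell (median 0.253).

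In 3 lists of the secretory pathway most of the tested genes rose. In ER-associated degradation, which returns misfolded proteins to the cytosol, 12 of 16 genes rose and 0 fell (median 0.433). SEL1L, a scaffold of the export channel, went from 8.31, 8.41 and 8.51 to 9.50, 9.51 and 9.30, apart by 1.03 ± 0.08. ERLEC1, a lectin of that pathway, rose by 0.82, DERL1 by 0.74, SELENOS by 0.66 and UBXN4 by 0.61. Of 18 coat and cargo receptor genes of ER-Golgi transport 13 rose and 0 fell (median 0.35), led after CREB3L2 by ARF4 (0.66), the cargo receptor SURF4 (0.65), GOLGA3 (0.62) and the retrieval receptor KDELR1 (0.61). In translocation and signal peptide processing 14 of 23 rose (median 0.279), with SEC11C, a catalytic subunit of signal peptidase, up by 1.31 where its paralogue SEC11A fell by 0.27. SRP9 of the signal recognition particle fell by 0.30, while SEC61A2 rose by 0.77, SEC61B by 0.62 and SEC61A1 by 0.61.

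Of 16 tested ER folding enzymes 9 rose and 2 fell (median 0.277). CLGN, a chaperone best known from testis, measured 4.16, 4.37 and 4.24 in untreated cells, under 4.50, and 6.77, 7.28 and 7.19 with the extract. Every extract value lay above every untreated one. HYOU1 rose by 0.80, although its dimmer row gave 0.14, and CREBRF by 0.81. CANX, the membrane-bound lectin chaperone, rose by 0.39, whereas its soluble relative CALR was 12.01 ± 0.03 in untreated and 11.92 ± 0.01 in extract arrays (SD, adjusted p = 0.0498). That call and the fall of CRELD2 (-0.26, adjusted p = 0.0484) lay at the threshold, and without any 1 of the 9 arrays the number of falls was 0 or 1. Among cytosolic heat shock proteins 3 of 16 rose and 4 fell, where 21.8% and 16.3% of all genes did. The cochaperone BAG3 rose by 0.76, and HSPB1, a small heat shock protein, fell from 9.61, 9.77 and 10.00 to 8.60, 8.93 and 9.10, as did HSPA4L (-0.41) and HSPA4 (-0.28). The call of BAG1 (0.18) was lost without any 1 of the 9 arrays (adjusted p = 0.0524 to 0.135). That of HSPH1 (0.18) was lost without untreated replicate 1 (0.152) or 2 (0.101) and without any extract array (0.0513 to 0.133), and the fall of HSPA14 (-0.32) without untreated replicate 1 or 2 or extract replicate 1 or 2 (adjusted p = 0.0618 to 0.101). The count of rises was 1 without untreated replicate 1 or 2 or extract replicate 1 or 2.

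Of 21 regulators of mTORC1, the kinase complex that couples amino acids to growth, 10 rose, 1 fell and 10 did not pass (median 0.229). RRAGC, a GTPase that brings the complex to the lysosome, went from 6.81, 6.68 and 6.74 to 8.02, 7.89 and 7.76, and FNIP1, a partner of folliculin, from 8.06, 7.70 and 8.02 to 9.22, 9.03 and 8.70. Neither overlapped, with rises of 1.15 and 1.06. AKT1S1 rose by 0.84, SESN2 and DDIT4 are given above, and SESN1 fell by 0.52, a call lost without untreated replicate 3 (adjusted p = 0.0659) or extract replicate 2 (0.0585) or 3 (0.0587). In autophagy 20 of 32 genes rose and 0 fell (median 0.354). GABARAPL1, which tags the autophagosome membrane, went from 6.25, 5.71 and 5.79 to 8.27, 8.05 and 7.68. The rise was 2.08 ± 0.21, with extract replicate 3 lowest of its group. The cargo receptors SQSTM1 (1.21) and CALCOCO2 (1.12), the membrane tag MAP1LC3B (1.21) and the mitophagy receptor BNIP3L (0.87) followed.

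Lysosomal genes split by enzyme. Of 28 tested genes 15 rose and 6 fell (median 0.235). CTSL, a cysteine protease, went from 5.45, 5.93 and 6.22 to 8.89, 9.04 and 8.69, apart by 3.01 ± 0.16 (8.04-fold). The sialidase NEU1 went from 7.50, 7.53 and 7.71 to 8.91, 8.96 and 8.91, and PSAP, the precursor of sphingolipid activators, from 10.55, 10.53 and 10.53 to 11.73, 11.82 and 11.72. Both groups were tight and apart, with rises of 1.35 and 1.22. IDS, which removes sulfate from glycosaminoglycans, rose by 1.19 and the peptidase TPP1 by 1.19. TFE3, a factor that drives lysosomal genes, rose by 0.97. CTSH fell from 6.31, 6.56 and 6.47 to 5.10, 5.60 and 5.73 and CTSZ from 9.53, 9.57 and 9.52 to 8.62, 8.79 and 8.98, also without overlap. CTSC fell by 0.23 and PPT1 by 0.29, and CTSV and GM2A, both at -0.36, lost their calls without extract replicate 2 (adjusted p = 0.0525 and 0.0532) and CTSV also without untreated replicate 1 (0.0556). The lysosomal membrane protein CD68, on the leukocyte list, rose from 7.94 ± 0.11 to 9.83 ± 0.13 (SD). The CLEAR element (TCACGTGA), the letters that TFE3 and its relatives bind, stood in 3 of 10 promoters of lysosomal genes that rose (CTSA, LAMP1 and MCOLN1), in 0 of 17 of autophagy genes that rose and in 1.76% of all promoters.

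The counts of the lipid lists stand beside 21.8% of all genes that rose and 16.3% that fell, and several are near these shares. ABHD4, a lipase of N-acylated phospholipids, went from 5.63, 5.36 and 5.70 to 8.61, 8.71 and 8.51. The extract arrays lay 3.05 ± 0.09 above the untreated ones (8.27-fold, adjusted p = 4.08e-09). GPAT3, which starts triglyceride synthesis, rose by 2.38 ± 0.08, the lipid droplet coat PLIN2 by 1.18 and the phosphatidate phosphatase LPIN2 by 0.75. In all, 6 of 18 glycerolipid genes rose, and 2 fell: PTDSS1 (-0.28) and HILPDA (-0.34). The fall of HILPDA was lost without any untreated array (adjusted p up to 0.1) and without extract replicate 1 (0.116) or 3 (0.114). Among 18 fatty acid synthesis genes 7 rose and 4 fell. The enzymes that activate acids and acetate rose most, ACSL1 from 6.05, 6.48 and 6.40 to 8.25, 8.27 and 7.87 and ACSS2 by 1.45, with the elongase ELOVL1 at 1.12. FASN, which builds palmitate, fell from 9.34, 9.37 and 9.42 to 8.61, 8.56 and 8.66, and HACD3, ACLY and ACACA fell by 0.49, 0.41 and 0.30. In fatty acid oxidation 3 of 14 rose and 3 fell, led by HADH, a mitochondrial dehydrogenase, which fell from 7.90, 7.80 and 7.95 to 6.40, 6.47 and 6.47. Cholesterol enzymes held 4 rises and 4 falls among 13 (median 0.084), from MSMO1 (0.77) to ACAT2 (-1.36). The count of falls was 2 without untreated replicate 1 or 3 or extract replicate 2. Of 12 genes of sterol sensing and uptake 6 rose, INSIG1 (0.72) and STARD4 (0.64) most.

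Genes of energy metabolism changed by small amounts. Respiratory chain subunits fell in 7 of 15 cases and rose in 0 (median -0.197), with COX8A down from 11.57, 11.76 and 11.38 to 11.16, 11.13 and 11.22. Its change was -0.40 ± 0.09, with no overlap. The list's count of falls was 4 without extract replicate 1 or 2. In a list of glycolysis and pentose phosphate genes, which does not hold PGD (given with the antioxidant genes), 1 of 11 genes rose and 4 fell: RPIA (-0.99), PGAM1 (-0.60), LDHB (-0.58) and HK2 (-0.54). After cyclic loess normalization the falls in this list numbered 8. In the citric acid cycle 5 of 12 rose and 2 fell, where 21.8% and 16.3% of all genes did. OGDH was at 0.58 and the gluconeogenic enzyme PCK2 at 0.52.

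Most tested genes of ribosome biogenesis fell, and most ribosomal protein genes did not pass. Of 34 genes of ribosome biogenesis 22 fell and 0 rose (median -0.282), and RRN3, a factor of RNA polymerase I, was called higher without extract replicate 3 (adjusted p = 0.0478). Fibrillarin (FBL), which methylates ribosomal RNA, went from 11.52, 11.66 and 11.63 to 10.64, 10.72 and 10.86, and MRTO4, an assembly factor of the large subunit, from 9.38, 9.29 and 9.36 to 8.55, 8.62 and 8.58. Extract values were the lower ones throughout, with changes of -0.86 ± 0.07 and -0.76 ± 0.07. TCOF1, a partner of RNA polymerase I, fell by 0.70, and LYAR fell too (-0.61). Of 78 cytosolic ribosomal proteins 46 were tested, and 17 fell and 2 rose (median -0.118). The falls numbered 11 without untreated replicate 3 or extract replicate 1. Their probes can also pick up the many processed copies of these genes, and the rows of RPL39 disagreed in size (-0.84, dimmer row -0.17). Of 77 mitochondrial ribosomal proteins 73 were tested, and 26 fell and 3 rose (median -0.13), with 17 falls without extract replicate 1. MRPL16 (-0.78) and MRPL35 (-0.70) fell most, while MRPL2 (0.68), MRPS10 (0.47) and DAP3 (0.43) rose. Among 18 translation factors 4 rose and 3 fell, near the 21.8% and 16.3% of all genes. EIF4EBP1, an inhibitor of cap-dependent initiation, was at 0.70 and EEF2K, a kinase that slows elongation, at -0.62.

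DNA replication genes fell nearly without exception. Of 56 listed genes 27 were tested, and 26 fell and 0 rose, 21 of them at least 2-fold (median -1.609). TOP2A, which untangles DNA, went from 11.03, 11.06 and 11.15 to 8.61, 8.73 and 8.58. GINS2, a subunit of the replicative helicase whose promoter is shown above, went from 8.45, 8.42 and 8.63 to 6.15, 5.92 and 6.45. In both the extract values were below all untreated ones, with changes of -2.44 ± 0.11 (5.43-fold lower) and -2.33 ± 0.15 (5.03-fold lower). TICRR, which helps fire origins (-2.17), the second GINS subunit GINS1 (-2.11) and the origin kinase CDC7 (-2.02) followed. TOP1, the topoisomerase that also serves transcription, was the 1 gene that did not pass (11.25, 11.31 and 11.37 against 11.23, 11.34 and 11.29). Some rows disagreed in size: the dimmer row of CLSPN gave -0.18 and that of GINS4 0.01, against -1.74 and -0.79 for the rows used. The dimmer row of CLSPN had a mean level of 3.42, under 4.50, so it cannot test the change, and that of GINS4 had 4.93. An E2F site stood in 11 of 21 promoters of the replication genes that fell (52.4%), against 9.78% of all promoters.

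Most tested genes of nucleotide supply fell as well. Of 24 genes 21 fell and 1 rose (median -0.571). TYMS, which makes thymidylate, went from 10.24, 10.24 and 10.28 to 7.57, 7.35 and 7.85, and the ribonucleotide reductase subunit RRM2 from 9.81, 10.00 and 9.94 to 7.97, 8.13 and 8.19. The groups lay apart, with changes of -2.66 ± 0.11 and -1.82 ± 0.08. DTYMK, the next kinase after TYMS (-1.66), the large subunit RRM1 (-1.39) and the salvage enzyme HPRT1 (-1.27) fell too. The 1 rise was RRM2B (0.51), the reductase subunit used outside S phase.

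Cyclins and kinases of S phase and mitosis fell, and D-type cyclins did not pass. Of 37 tested genes 28 fell and 1 rose (median -1.098), 19 falls of at least 2-fold. CDK1, the kinase of mitotic entry, went from 8.58, 8.56 and 8.62 to 6.40, 6.38 and 6.38, and cyclin CCNB2, its partner, from 9.47, 9.40 and 9.59 to 7.56, 7.67 and 7.56. The extract values of CDK1 lay close together and below the untreated ones (-2.20 ± 0.08), as did those of CCNB2 (-1.89 ± 0.12). CCNA2 (-1.91), the repressor E2F8 (-1.84) and CCNF (-1.77) were next. Of the D-type cyclins of early G1, CCND1 differed by -0.13 and CCND3 by 0.05, and CCND1 was called lower only after cyclic loess normalization (adjusted p = 0.0314). CDK6, their partner, was the 1 rise, at 0.20, a call lost without untreated replicate 2 (adjusted p = 0.138) or 3 (0.0857), without any extract array (0.0614 to 0.115) and without carnosic acid replicate 2 (0.0567). CDKN1A had no named row here.

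By number, mitotic genes held more falls of at least 2-fold than any other list. The shorter replication list held 21 among 27 tested genes. Of 49 tested genes of mitotic kinases, checkpoint and kinetochore 44 fell and 0 rose (median -1.405), 33 of them at least 2-fold. OIP5, which loads the centromeric histone, went from 7.73, 7.71 and 7.76 to 5.33, 5.26 and 5.45, and CENPI of the inner kinetochore from 8.54, 8.48 and 8.62 to 6.23, 6.14 and 6.17. Untreated and extract values were both tight and apart, with changes of -2.39 ± 0.14 and -2.37 ± 0.12. The kinase MELK (-2.18), CENPK (-2.16) and PLK4, which duplicates centrioles (-2.14), were next. CENPT (-0.10) and AURKC (-0.10), a kinase of germ cells, were among the 5 that did not pass. Spindle and cytokinesis genes fell in 23 of 25 cases (median -1.241). NUSAP1, which bundles microtubules, fell from 10.78, 10.80 and 10.99 to 8.53, 8.40 and 8.41, PRC1 (-1.79) and ARHGAP11A (-1.85) fell too, and NIN, which anchors microtubules at the centrosome, rose by 0.34.

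**Figure D3:**
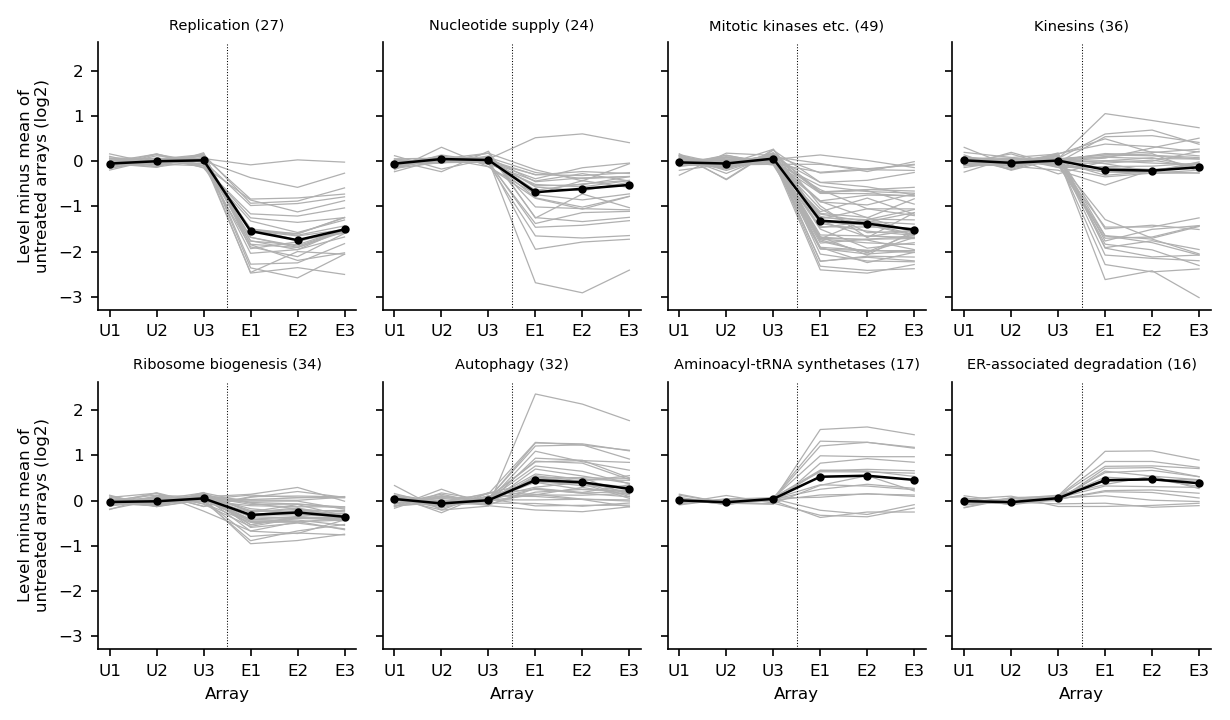
Each grey line is 1 tested gene of a list, drawn as its level in an array minus its mean over the untreated arrays (log2, y axis) for untreated arrays U1 to U3 and extract arrays E1 to E3 (x axis), with the median of the list in black and lines that only join values, since replicates have no order. Replication and mitotic genes drop in all 3 extract arrays, and the kinesins part into a group that drops and a group that stays near 0.

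Of 36 tested kinesins 15 fell and 5 rose (median -0.151). KIF20A, which works at the midzone of the dividing cell, went from 9.63, 9.48 and 9.66 to 6.97, 7.17 and 6.58, and KIF11, which pushes spindle poles apart, from 10.54, 10.51 and 10.58 to 8.26, 8.10 and 8.16. KIF20A was 6.42-fold and KIF11 5.17-fold lower, with no overlap. Of the falls 13 ran from KIF22 (-1.39) to KIF20A (-2.68). The next lowest value was that of KIF12 (-0.28), so no kinesin lay between -1.39 and -0.28. The neuronal and organelle transport motors KIF5A (-0.05), KIF5B (0.10) and KIF3A (0.13) did not pass. KIF1B rose by 0.90 (dimmer row 0.03), KIF16B by 0.55 and KIF21A by 0.51. The rises of KIF13B (0.30) and KIFC3 (0.32) were lost without single arrays (adjusted p = 0.0503 and 0.0618 without untreated replicate 2, 0.0556 and 0.189 without extract replicate 1), and without untreated replicate 2 only 3 kinesins rose. The cell cycle homology region stood in 9 of 15 promoters of kinesins that fell (60.0%), in 17 of 33 of the mitotic genes that fell (51.5%) and in 13 of 22 of the spindle genes that fell (59.1%), against 9.92% of all promoters. Over all 223 promoters of genes that fell at least 2-fold, 28.7% held it and 23.3% held an E2F site, and over the 223 promoters of genes that rose at least 2-fold 7.62% and 8.07% did. The CCAAT box stood in 57.0% and 37.2% of them and in 36.1% of all promoters.

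**Figure D4:**
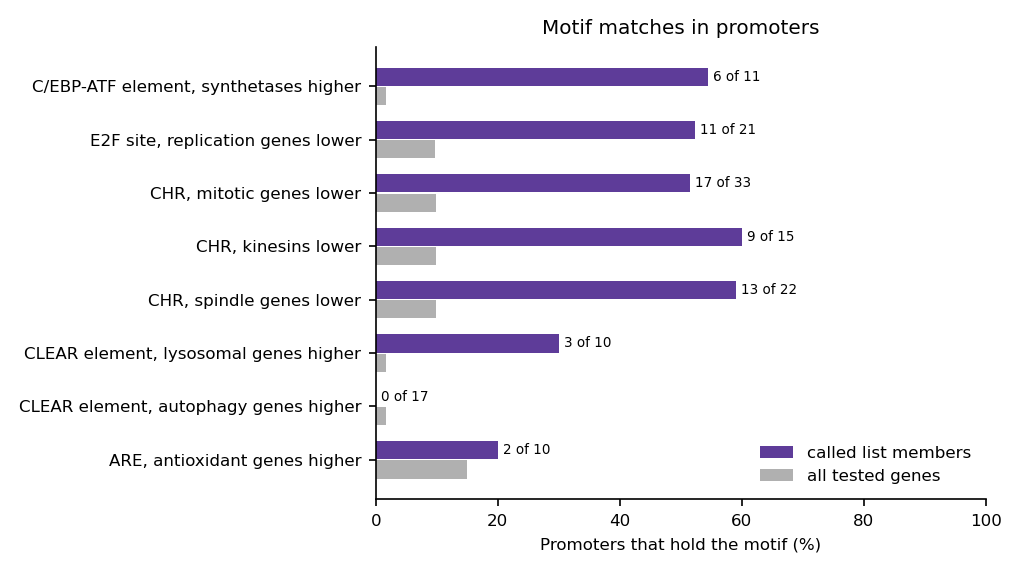
Purple bars give the share of promoters that hold a motif (x axis, percent) among the members of a list that were called in the direction named, with the number of promoters beside each bar, and grey bars the share among all 8486 promoters of tested genes (CHR is the cell cycle homology region, ARE the antioxidant response element). The purple bar is longer than the grey one for every list shown but the autophagy genes, of which 0 of 17 hold the CLEAR element.

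Many chromatin and repair genes that work at the replication fork fell as well. In DNA methylation and chromatin maintenance 21 of 23 fell and 0 rose (median -0.613). LMNB1, a lamin of the nuclear envelope, went from 10.35, 10.38 and 10.43 to 8.22, 8.07 and 8.30, a change of -2.19 ± 0.08. HMGB2 (-1.71), UHRF1, which carries DNA methylation through replication (-1.56), the histone methylase EZH2 (-1.11) and DNMT1 (-1.08) fell, while the de novo methylase DNMT3A (0.15) and TET2 (0.12) did not pass. Of 14 condensin and cohesin genes 9 fell (median -0.647), with the proliferation antigen MKI67 down from 11.36, 11.28 and 11.57 to 9.68, 9.66 and 9.78 and the condensin SMC4 at -1.32. ESCO1, an acetylase of cohesin, rose by 0.48 where ESCO2, its S phase counterpart, fell by 1.21. MAU2, a loader of cohesin, was the other rise (0.27), a call lost without untreated replicate 3 (adjusted p = 0.0631) or extract replicate 2 (0.0721). Of 4 tested histone chaperone genes ASF1B (-1.97), NASP (-1.28) and SLBP (-1.13) fell and ASF1A (0.77) rose.

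Repair pathways differed in how many members fell. Homologous recombination and Fanconi genes fell in 15 of 21 cases and rose in 0 (median -0.874). BRIP1, a helicase of both pathways, went from 8.31, 8.11 and 8.37 to 6.30, 6.09 and 6.06, and UBE2T, which starts Fanconi repair, from 9.97, 9.82 and 9.85 to 8.05, 7.66 and 7.93. The groups of both lay apart, and the change of BRIP1 was -2.11 ± 0.10. NBN (-0.07) of the break sensor did not pass, while its partner MRE11 fell by 1.01. In end joining and damage checkpoint 9 of 17 fell and 3 rose. CHEK1 fell by 1.46, and RAD17 (0.68), MDM4 (0.67) and HUS1 (0.51) rose. In mismatch and excision repair 6 of 17 fell: NEIL3 (-1.96), UNG (-1.81), MSH6 (-1.07), PARP1 (-1.03), PARP2 (-0.49) and PMS1 (-0.41), the last a call lost without untreated replicate 2 (adjusted p = 0.0646) or 3 (0.107) or extract replicate 2 (0.0645) or 3 (0.106). The 1 rise was MLH3 (0.28), a call lost without extract replicate 2 (adjusted p = 0.0568).

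Nuclear pore and splicing genes fell by small steps. Of 36 pore and transport genes 24 fell and 3 rose (median -0.339). NUP107, a scaffold of the pore, went from 8.64, 8.77 and 8.69 to 7.29, 7.16 and 7.06 and fell by 1.53 ± 0.07. NDC1 (-0.98) and RANBP1 (-0.94) followed, and the importins KPNA4 (0.56) and TNPO1 (0.55) rose, as did NUP58 (0.32). Of 39 splicing factors 25 fell and 2 rose (median -0.221). SNRPB, a core protein of the spliceosome, went from 9.78, 9.75 and 9.72 to 8.81, 8.93 and 8.96. The kinases of splicing factors CLK4 (0.50) and CLK1 (0.38) were the 2 that rose, and the call of CLK1 was lost without untreated replicate 1 (adjusted p = 0.0667) or 2 (0.158), extract replicate 1 (0.154) or 2 (0.119) or carnosic acid replicate 2 (0.0502).

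**Figure D5:**
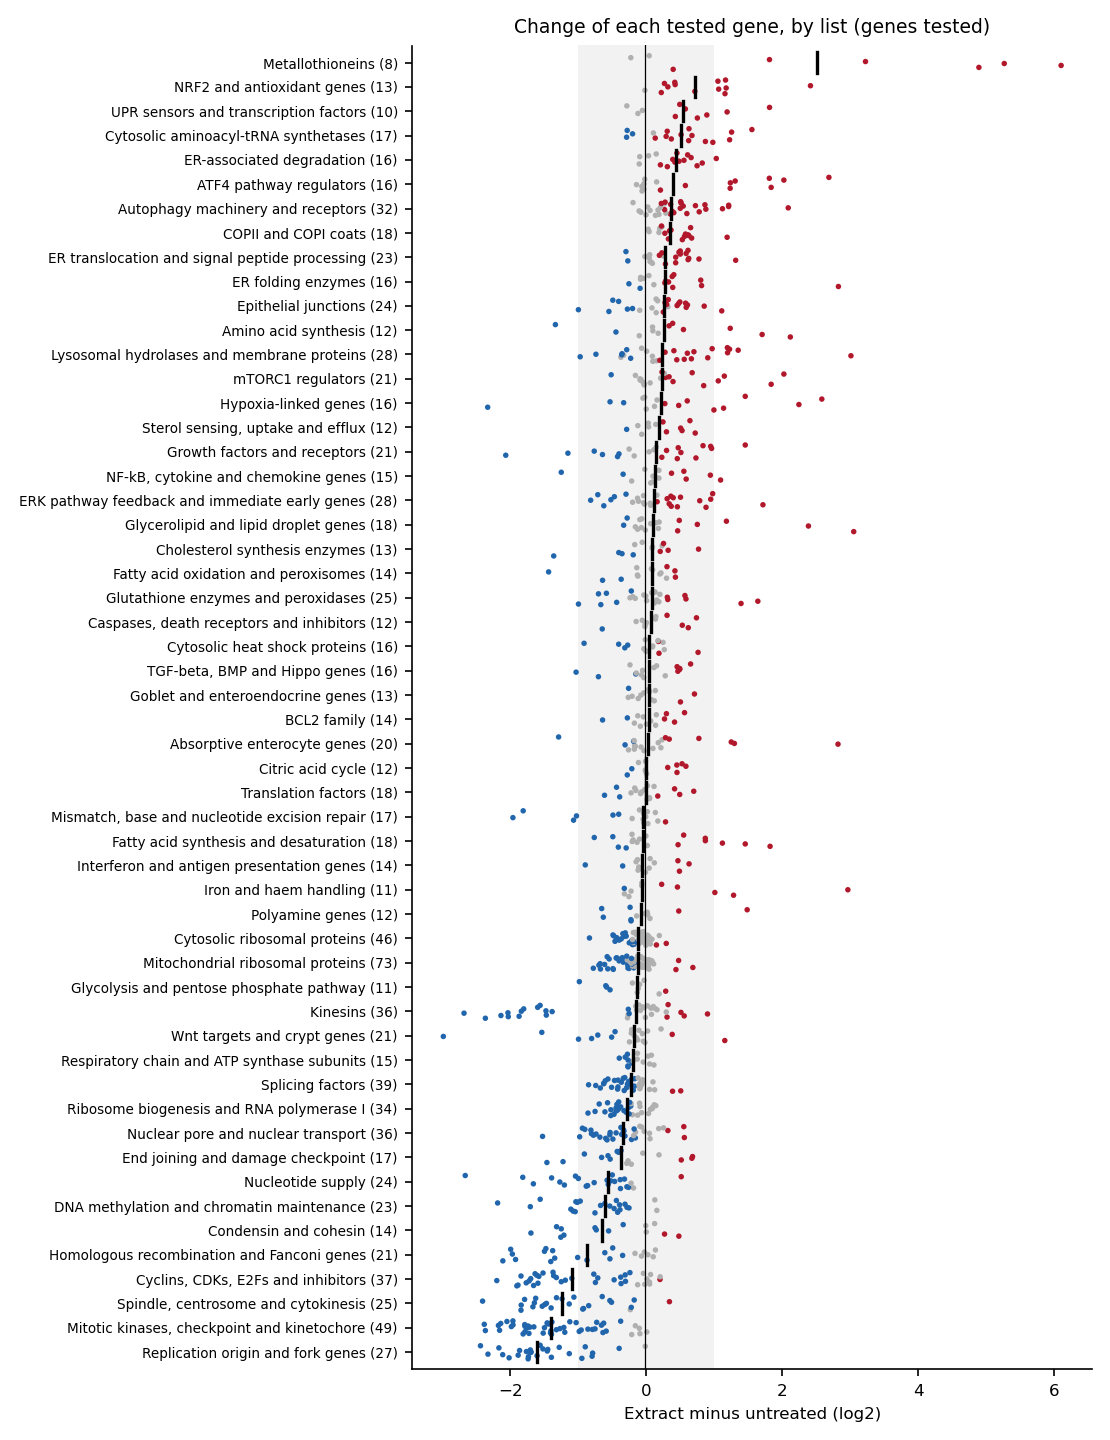
Each point is a tested gene, placed by its extract minus untreated difference (log2, x axis) in the line of its list (y axis, with the number of genes tested). Shown are the metallothioneins and the lists with at least 10 tested genes, without the marker lists, and a gene can be in several (red called higher, blue lower, grey not called, thick bars medians, thin line the median of all genes, grey band changes under 2-fold). Replication and mitotic lists lie at the bottom with medians of -1.609 and -1.405.

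Cell death genes changed in both directions and about as often as all genes (38.1%). Of 14 tested BCL2 family genes 4 rose and 2 fell (median 0.032). The sensitiser PMAIP1 rose from 6.43, 6.45 and 6.18 to 7.07, 6.92 and 6.76, and the survival genes BCL2L1 by 0.41 and MCL1 by 0.29. BCL2L12 fell by 0.65. Among caspases, death receptors and inhibitors 4 of 12 rose, with RIPK3 (0.74), BIRC2 (0.62) and CFLAR (0.53) first, and APAF1, the core of the apoptosome, fell from 7.10, 6.99 and 7.30 to 6.58, 6.54 and 6.31. Of 9 tested p53 targets GDF15, a stress cytokine (9.68, 9.53 and 9.41 against 10.72, 10.92 and 10.67), PLK3 (0.95) and RRM2B rose, and SESN1 fell. The calls of MCL1, BID (-0.28) and XIAP (0.30) were lost without untreated replicate 2 (adjusted p = 0.0641, 0.0925 and 0.0819) or extract replicate 1 (0.0702, 0.108 and 0.106), that of BID also without extract replicate 2 (0.09), that of XIAP without untreated replicate 1 (0.08) and that of SESN1 as given above.

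Genes of the Wnt-driven crypt and of the absorptive surface did not move as blocks. Their counts stand beside 21.8% of all genes that rose and 16.3% that fell. LGR5, a receptor that marks crypt stem cells, went from 8.11, 7.97 and 8.26 to 5.17, 5.09 and 5.12. This was the largest fall among the called genes ranked, -2.99 ± 0.15 (7.93-fold lower). The ranking left out uncharacterised loci, pseudogenes, noncoding RNAs and genes with overlapping groups. AXIN2, a feedback target of the same pathway, went up, from 8.53, 8.42 and 8.55 to 9.73, 9.74 and 9.50. PROM1 (-1.54), DKK1 (-0.81) and MYC (-0.72) fell, and so did the adhesion receptor CD44, from 9.62, 9.45 and 9.65 to 8.60, 8.65 and 8.48. In all 7 of 21 fell and 2 rose (median -0.179), with NKD1 (0.38) the second rise. Of 20 enterocyte genes 6 rose and 3 fell (median 0.03). CEACAM5, the carcinoembryonic antigen, went from 7.19 ± 0.43 to 10.01 ± 0.14 (SD), up by 2.82 ± 0.19, CEACAM6 rose by 1.29, the brush border peptidase DPP4 by 1.25 and the keratin KRT20 by 0.77. VIL1, which bundles actin in the brush border, fell from 8.57, 8.55 and 8.51 to 7.20, 7.23 and 7.34. Of 24 junction genes 12 rose and 6 fell, from CLDN12 (1.11) and the desmosomal cadherin DSC2 (0.85) as rises to CLDN2, the claudin of leaky epithelia, which fell from 7.20 ± 0.09 to 6.20 ± 0.27 (SD). Among 13 goblet and enteroendocrine genes SPDEF (0.71) and AGR2 (0.50) rose.

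Hypoxia-linked genes rose in part, and endothelin fell. Of 16 tested 8 rose and 3 fell (median 0.213). NDRG1 went from 5.99, 6.11 and 6.08 to 8.65, 8.74 and 8.52, and EPAS1, which encodes HIF-2 alpha, from 7.15, 6.89 and 7.03 to 9.45, 9.25 and 9.10. Extract values were the higher ones, by 2.58 ± 0.13 and 2.24 ± 0.10. VEGFA rose by 1.45 and CA12 by 1.13. EDN1, which encodes endothelin, fell from 10.12, 9.98 and 10.18 to 8.03, 7.71 and 7.53, with extract replicate 3 the lowest of all (5.05-fold lower, adjusted p = 2.62e-07). The other members that fell were the hexokinase HK2 and HILPDA, given above.

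Signalling genes moved both ways. Counts of these lists stand beside 21.8% of all genes that rose and 16.3% that fell, and several are near these shares. Of 28 genes of ERK feedback and immediate early response 13 rose and 6 fell (median 0.108). DUSP5, a phosphatase of ERK, went from 8.06, 7.71 and 7.77 to 9.74, 9.57 and 9.37 (dimmer row 0.49), SPRY4 rose by 0.97 and FOSL1 by 0.94. FOS fell from 9.20, 8.99 and 9.22 to 8.24, 8.32 and 8.40 (-0.82, dimmer row -1.46). Of 21 growth factors and receptors 10 rose and 6 fell: the thrombin receptor F2R fell from 9.18, 9.15 and 9.44 to 7.02, 7.25 and 7.29, FGFR4 fell by 1.16, and IRS2 (0.96) and PDGFA (0.94) rose. Among 15 inflammatory genes CXCL8, a chemokine, rose from 5.59, 5.72 and 5.83 to 7.14, 6.78 and 6.48 and LCN2 by 0.94, while PTGS2, the inducible cyclooxygenase, fell from 7.48, 7.71 and 8.01 to 6.67, 6.30 and 6.47. In all 5 of them rose and 2 fell. In the TGF-beta, BMP and Hippo list 5 of 16 rose, YAP1 most (0.65, dimmer row 0.20), and 3 fell, CCN2 most (-1.04, dimmer row -0.02). That row of CCN2 had a mean level of 2.91, under 4.50, so it cannot test the change. Polyamine genes held SMOX, spermine oxidase (1.48), and SAT1 (0.48) as rises and 5 falls led by SMS (-0.66). The falls numbered 3 without untreated replicate 3 or extract replicate 2. Of 14 interferon genes 3 rose and 2 fell, with IFITM3 at -0.90, and of 6 integrin and matrix genes TIMP2 (1.59) and TIMP1 (0.47) rose.

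Several of the largest changes stood in no list. SPIRE1, an actin nucleator, rose 7.9-fold, KDM7A, a histone demethylase, 7.41-fold and SLFN5 5.9-fold. SPP1, osteopontin, went from 6.87, 6.03 and 5.99 to 9.37, 8.88 and 8.33, with extract replicate 3 the lowest of its group, and rose by 2.56 ± 0.29. ROR1, a receptor for Wnt5a, fell by 2.23 (4.68-fold lower), and MNS1, a protein of meiosis and cilia, from 9.29, 9.15 and 9.46 to 6.82, 6.67 and 6.89 (5.67-fold lower).

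The share of genes called differed by the type of RNA, as a description. Of 9686 protein-coding genes 2265 rose (23.4%) and 1683 fell (17.4%), and of 731 long noncoding RNAs 73 rose (9.99%) and 49 fell (6.7%). The array also holds 429 tested rows named for microRNAs, of which 33 rose (7.69%) and 57 fell (13.3%), 8 and 3 of them at least 2-fold. Both shares lie under those of all genes (21.8% and 16.3%). These rows measure RNA with probes for whole transcripts, so a mature microRNA and its precursor cannot be told apart. The mature sequences of 3 that rose, chosen after their values were seen, are shown with the seed (bases 2 to 8) in capitals (RefSeq, GRCh38.p14).
hsa-miR-29a-3p: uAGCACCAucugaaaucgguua
hsa-miR-222-3p: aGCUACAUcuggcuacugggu
hsa-miR-31-5p: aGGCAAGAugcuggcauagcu
No seed was shared among the 13 mature arms that RefSeq lists for those changed at least 2-fold. MIR29A (chr7:130876748-130876769 for this arm, minus strand) measured 3.70, 4.04 and 4.28, all under 4.50, and 5.78, 5.95 and 5.05 with the extract. MIR222 (chrX:45747036-45747056, minus strand) went from 4.92, 5.28 and 5.28 to 6.43, 6.56 and 5.88, and MIR31 (chr9:21512158-21512178, minus strand) from 5.29, 5.03 and 4.48 to 6.05, 6.11 and 5.81. All 3 were higher in every extract array, with extract replicate 3 the lowest, and the differences of MIR222 and MIR31 were 1.13 ± 0.19 and 1.06 ± 0.18. MIR31HG, the long RNA that hosts MIR31, rose from 7.67, 7.61 and 7.69 to 8.88, 9.10 and 8.83.

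The arrays of carnosic acid showed where the extract differed from this single compound at the concentrations used, which may not match. Between the extract and carnosic acid 1933 of 11163 genes were called (17.3%), 920 higher (8.24%) and 1013 lower (9.07%) with the extract. Among the lists the widest median difference was that of the metallothioneins (2.308), where 6 of 8 were higher with the extract and the list's median change with carnosic acid was 0.099. Among the 6 is MT1H, which passed the level filter only through the extract arrays. Of 27 replication genes 25 lay lower with the extract (median difference -1.354) and of 49 mitotic genes 42 (-1.135). Cytosolic synthetases were higher in 12 of 17 (0.391) and ATF4 pathway genes in 8 of 16 (0.271). Ribosomal proteins differed in few cases, with 1 of 46 higher and 1 lower (-0.007), and respiratory chain genes in 1 of 15 (-0.017). Cholesterol enzymes were lower with the extract in 5 of 13 cases and higher in 0. Of the 15 largest rises 15 were higher with the extract than with carnosic acid, and of the 15 largest falls 14 were lower. These genes were chosen on the same extract arrays, so the counts are a description. EDN1 was the exception, with a difference between extract and carnosic acid of -0.40 (95% interval -0.714 to -0.0802, limma adjusted p = 0.0889). The intervals of CEACAM5 (0.60, from 0.193 to 1.01) and SPP1 (0.94, from 0.303 to 1.57) came nearest to 0 among the rises.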

How the data were processed

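The deposited values are log2 expression levels normalized by RMA, per the labels, with oligo named in the submitters' processing notes, and RMA is known to compress large changes. The array has no counts, so the number of arrays limits the precision. Rows with 1 gene symbol were kept, the brightest row per gene was used, and the dimmest 25% of genes were left out. A limma model (version 3.58.1, R 4.3.3) was fitted to the 9 arrays with a variance trend and 6 residual degrees of freedom, with Benjamini-Hochberg adjustment over 11163 genes. The script was tested on simulated data. No 2 arrays held identical values. Genes named include the 15 largest rises and falls with groups apart, with uncharacterised loci, pseudogenes and noncoding RNAs left out. Also named are up to 5 of the largest changes per list, members called against its majority and members that did not pass. ATF4, MT1E, UROD, TXNRD1, IARS1, MARS1, NARS1, TARS1, SHMT2, TFE3, CTSA, LAMP1, MCOLN1, CLSPN, GINS4, KIF22, MRE11, PMS1, RRN3, MIR29A, MIR222, MIR31 and MIR31HG were named after their values were seen. Lists and tests were chosen with earlier results of these data known. Alternatives were cyclic loess, median centring, other filters, a test against 1.2-fold and leaving out each array. Where the rows of a gene whose change is described differed in size by over 1.5 times, the dimmer row's change is given.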

Additional observations from a re-analysis of the deposited data

Results flagged for a closer look

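Signal outside the genes described came from rows of the array that carry no gene symbol here. Of 37519 such rows 3695 were called in the same comparison, of which 2151 were higher and 1544 lower with the extract. The largest rise was row 16869960, from a mean of 4.334 to 9.215, and the largest fall row 17016499, from 11.55 to 7.082. Their identity was not analysed here.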

How the results depend on the processing

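The number of genes called moved by over 1.5 times under 2 alternatives. A test against a change of 1.2-fold called 1803 genes, 1072 higher and 731 lower, and 515 between extract and carnosic acid. Testing all rows of the array, named or not, called 7230 rows, 4207 higher and 3023 lower, and 1226 of at least 2-fold. Without 1 array at a time the genes called ranged from 3493 (without extract replicate 2) to 4237, the rises from 2013 to 2408, the falls from 1480 to 1829 and the changes of at least 2-fold from 553 to 632. Between extract and carnosic acid they ranged from 1289, without extract replicate 2, to 1965. Median centring gave 2564 rises and 1568 falls and cyclic loess 2274 and 2087. In none of the alternatives run on named genes was a called gene called in the opposite direction. The labels do not state whether replicate numbers pair the samples. Deviations of same-numbered arrays correlated at -0.00214, -0.0834 and -0.219, which cannot exclude a pairing. A fit with the replicate number as a block called 4226 genes. TOP1 and NFE2L2, which were not called, changed sign around 0: TOP1 was 0.012 after median centring and -0.0476 to 0.0123 without 1 array, and NFE2L2 0.00696 and -0.0437 to 0.0144. Dim genes limit what can be said, since a level near 4.50 cannot be told from background.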
